A study of Mus musculus with 23 samples.

Results

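Fam107a, Zbtb16, Hif3a, Card14 and Rasd1 were at or close to 0 in mouse embryonic fibroblasts (MEFs) without ligand and rose when cells with an unmodified glucocorticoid receptor (GR) were given dexamethasone (Dex), a synthetic GR ligand. They are 5 of the 55487 gene identifiers in the count table. They were picked for very low counts in vehicle and a rise with Dex in GRwt/wt, so these values chose them and are given as a description. Primary MEFs came from mid-gestation embryos of heterozygous FVB/NJ intercrosses, with head and organs removed, and received vehicle or Dex at 10 nM, with RNA taken after 5 h. The receptor was unmodified (GRwt/wt), had alanine replaced by threonine at the dimer contact of the DNA-binding domain (GRD/D), had alanine in place of isoleucine in the ligand-binding domain (named GRL/L), or carried both replacements (GRD+L/D+L). All mutant cells were homozygous. The L and D+L alleles were made with CRISPR/Cas9 and backcrossed for 5 generations, and the D+L allele goes back to 1 founder pup. Each of the 8 groups had 3 libraries, apart from GRD/D vehicle with 2, and within a genotype each culture was started from another mouse. Symbols in the text are those of the mouse genes, and levels are in CPM, the reads of a gene relative to the scaled total of its library.

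GR is a nuclear hormone receptor whose ligands are the steroids of the adrenal cortex and their synthetic relatives. At many induced genes it binds a palindrome of hexamer half-sites, and contacts in the DNA-binding domain and in the ligand-binding domain both take part in its self-association. The 5 genes have unrelated products. Fam107a (also DRR1) encodes an actin-associated protein known as a stress-induced gene of the brain, and Rasd1 (also Dexras1) encodes a small Ras-like GTPase first found as a Dex-induced transcript. Zbtb16 (also PLZF) encodes a BTB-domain zinc-finger repressor, and Hif3a encodes an alpha subunit of the hypoxia-inducible factors, some isoforms of which restrain the other alpha subunits. Card14 (also CARMA2) encodes a scaffold that links receptors to BCL10, MALT1 and NF-kB and is best known from keratinocytes.

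The genes lie at separate places in the GRCm38 genome. Fam107a (ENSMUSG00000021750) spans chr14:8296274-8318023 on the minus strand, Zbtb16 (ENSMUSG00000066687) chr9:48654297-48836222 on the minus strand, and Hif3a (ENSMUSG00000004328) chr7:17031507-17062427 on the minus strand. Card14 (ENSMUSG00000013483) spans chr11:119307768-119345375 on the plus strand and Rasd1 (ENSMUSG00000049892) chr11:59963181-59964944 on the minus strand. The 3' end of Card14 overlaps Sgsh on the other strand, and the strand setting of the counting is not given in the sources used here, so reads of the pair could be mixed where they overlap. Sgsh went from 61.4 CPM in GRwt/wt vehicle to 53.9 CPM with Dex (LFC, the log2 fold change, -0.19, adjusted p = 0.48).

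RefSeq promoter windows of GRCm38.p6, which run from 250 bases before to 50 after a transcript start, matched 2 of the 5 genes, Fam107a with 3 windows and Hif3a with 1. Zbtb16, Card14 and Rasd1 had no match. The windows were searched for the GR half-site AGAACA and its reverse complement TGTTCT, and for the palindrome of both with 3 bases between them, allowing at most 1 mismatch over the 12 half-site letters. A pair of overlapping windows at a start inside Fam107a held 1 copy of each half-site, and the window of the outer Fam107a start and that of Hif3a held none. At least 2 half-sites were present in 2.54% of all 32851 windows and at least 1 in 19% of them. No window of the 2 genes held the palindrome, which 0.164% of all windows held with at most 1 mismatch. One start region of each matched gene is shown, that of Fam107a with the half-sites and that of Hif3a without any. They are upstream of the inner Fam107a start, chr14:8309796-8310029 on the minus strand, up to the first annotated exon base, and upstream of the Hif3a start, chr7:17062428-17062677 on the minus strand. They are written 5' to 3' with half-sites in capitals.
Fam107a inner start: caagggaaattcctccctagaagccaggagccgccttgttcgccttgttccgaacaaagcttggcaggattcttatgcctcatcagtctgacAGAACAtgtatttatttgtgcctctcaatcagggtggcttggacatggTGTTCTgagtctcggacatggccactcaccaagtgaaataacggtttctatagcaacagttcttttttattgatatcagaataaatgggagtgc
Hif3a start: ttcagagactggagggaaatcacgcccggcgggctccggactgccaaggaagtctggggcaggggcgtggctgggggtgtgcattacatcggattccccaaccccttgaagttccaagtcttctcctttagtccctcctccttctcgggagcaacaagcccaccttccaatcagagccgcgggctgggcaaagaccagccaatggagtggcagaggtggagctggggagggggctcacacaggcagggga

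The half-sites of Fam107a began 158 and 110 bases before the inner start, too far apart for a palindrome. GR binding at these bases was not analysed here.

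Library totals ran from 16.5 to 23.1 M counts. A total of 3 counts over a whole group, the floor used for bounds, is 0.051 to 0.0757 CPM. A fold given as "at least" is set against this floor and is no confidence limit. Fibroblast markers (10 of 10 detected) summed to 40526 to 65594 CPM in every library. Keratinocyte and epithelial markers (5 of 5 detected) summed to 0.229 to 1.31 CPM. Neuronal and glial markers (6 of 6 detected) summed to 34.9 to 253 CPM (median 99.5 CPM), the highest in GRwt/wt Dex replicate 3. Their part in the levels of the 5 genes was not tested. GRwt/wt vehicle replicate 1 stood apart, with a highest Spearman correlation to another library of 0.916 where every other library reached 0.973 or more. It also had the highest sum of muscle markers (210 CPM, next GRwt/wt Dex replicate 1 with 140 CPM, median 8.39 CPM). GRwt/wt vehicle replicate 3 had the highest sum of macrophage markers (4234 CPM, next highest library 1429 CPM). Nr3c1, the gene of GR, ranged from 4.08 to 88 CPM in GRwt/wt vehicle and 44.5 to 81.3 CPM in GRwt/wt Dex, and from 90.2 to 265 CPM in the mutants. Read counts per gene do not show the point mutations.

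Fam107a, the actin-associated gene, had 2, 1 and 0 counts in the 3 GRwt/wt vehicle libraries and 286, 102 and 109 counts in the Dex libraries of the same genotype, replicates in order. This is 0.0547 ± 0.0552 CPM (SD, n = 3) in vehicle against 8.68 ± 5.1 CPM with Dex, a ratio of summed counts of 171 (95% interval 58 to 830, exact for counting error only). Replicate 1 was the highest Dex library with 14.5 CPM, and every Dex library was far above every vehicle library. In bulk RNA a rise in a few cells cannot be told apart from a smaller rise in all cells.

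Zbtb16, the zinc-finger repressor, had 0, 0 and 7 counts in GRwt/wt vehicle and 55, 359 and 172 counts with Dex. Its mean went from 0.106 ± 0.183 to 10.1 ± 7.04 CPM (SD, n = 3), and the ratio was 86.2 (41.6 to 215). The vehicle counts were all in replicate 3, the library with the macrophage markers, whose part in these counts was not tested, and the other vehicle libraries were at 0. Dex replicate 1 was the lowest of the Dex libraries with 2.78 CPM.

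Hif3a, the hypoxia-inducible factor subunit, had 0, 4 and 0 counts in GRwt/wt vehicle and 76, 198 and 50 counts with Dex. Its mean went from 0.0716 ± 0.124 to 5.41 ± 3.36 CPM (SD, n = 3), a ratio of 83.4 (32.3 to 308). The vehicle counts were all in replicate 2, and Dex replicate 2 was the highest with 9.28 CPM.

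Card14, the NF-kB scaffold, was the only one of the 5 with counts in all 3 GRwt/wt vehicle libraries, with 3, 6 and 5 counts against 65, 120 and 37 with Dex. Its mean went from 0.238 ± 0.079 to 3.74 ± 1.7 CPM (SD, n = 3), and its ratio of 16.3 (9.52 to 30.3) was the lowest of the 5.

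Rasd1, the Ras-like GTPase, had 0 counts in every GRwt/wt vehicle library and 14, 57 and 14 counts with Dex. Its mean with Dex was 1.42 ± 1.09 CPM (SD, n = 3). The summed Dex counts (1.49 CPM) were 29.2-fold higher than the floor of 3 counts over the vehicle group (0.051 CPM). Levels of different genes can be compared only per length, and the annotated exons of Rasd1 (1611 bases) are the shortest of the 5. Per kb of exon, the Dex level in GRwt/wt was 2.24 ± 1.32 CPM for Fam107a, 1.91 ± 1.33 for Zbtb16, 0.88 ± 0.676 for Rasd1, 0.812 ± 0.37 for Card14 and 0.807 ± 0.501 for Hif3a (SD, n = 3). On that scale the means of Rasd1, Card14 and Hif3a differed by less than the spread between libraries.

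The 3 GRwt/wt Dex libraries did not rank the genes in 1 order. Replicate 2 held the largest share of the summed CPM of Zbtb16 (55.4%), Hif3a (57.1%), Card14 (50.1%) and Rasd1 (62.8%), and the smallest share of Fam107a (18.4%). Replicate 1 held 55.5% of Fam107a and 9.16% of Zbtb16. Replicate 1 was also the Dex library with the high muscle markers (140 CPM against 10.9 and 9.99 CPM in the others). Replicate 2 had the highest macrophage markers of the 3 (88.2 CPM against 28.3 and 14.8 CPM). The part of either in the levels was not tested.

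**Figure D1:**
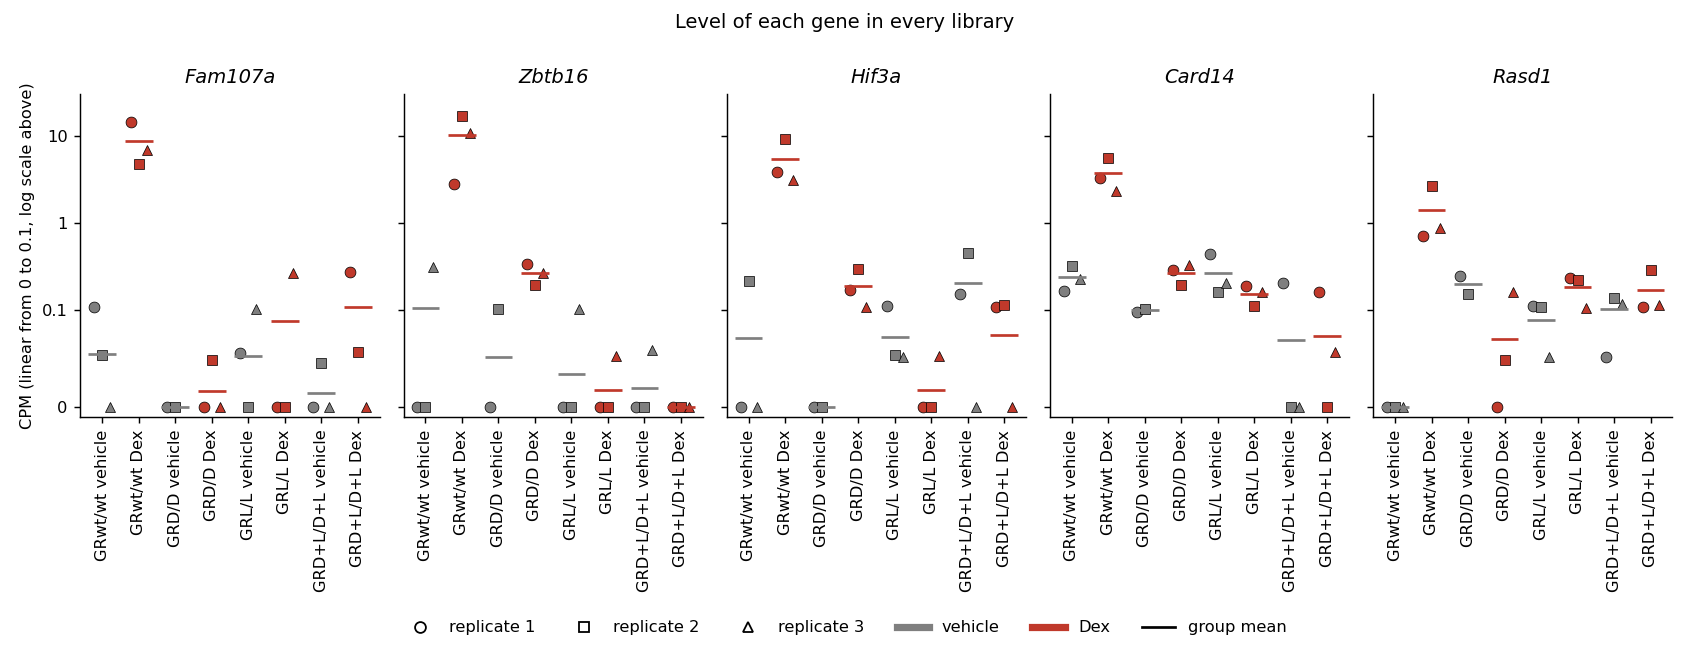
CPM of the 5 genes in each of the 23 libraries, grouped by genotype and treatment (x axis). The y axis is linear from 0 to 0.1 CPM and logarithmic above, symbols mark the replicate number and bars the group mean. The GRwt/wt Dex libraries lie at or above 0.708 CPM for every gene, and all other libraries at or below 0.457 CPM.

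All 5 genes were called with Dex in GRwt/wt, where a rise was part of their choice. A call is an adjusted p up to 0.05 with an absolute LFC from 1 upward in edgeR's quasi-likelihood test. In all, 25 genes (0.159% of the 15748 tested) were called, each of them higher, while DESeq2 called 279 genes (1.78%), all 5 among them. The 5 genes were ranks 1 to 5 by LFC of the genes edgeR called. The next was Fkbp5, a co-chaperone of GR, which started from 31 CPM and reached 348 CPM (LFC 3.49). The seventh, AC103362.1, also began near 0, with 1, 5 and 2 counts in vehicle and 10, 23 and 22 with Dex (0.138 against 0.985 CPM, LFC 2.78). In 4.98% of all genes tested every GRwt/wt Dex library was above every vehicle library, as in all 5. Without Dex replicate 2 the call was lost by Zbtb16, Hif3a and Card14, and without Dex replicate 3 by Zbtb16. It was lost by all 5 without vehicle replicates 1 and 3 (LFC from 3.50 to 10.58, adjusted p from 0.0517 to 0.226), where 1 vehicle library is left and is taken to vary like the other groups, and in a fit of GRwt/wt alone (0.472 to 0.97). No weight is put on these counts since the genes were chosen for this rise.

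How far such a pattern was shared was read from the whole table. In every GRwt/wt vehicle library 39320 genes had at most 0.322 CPM, the highest vehicle value of the 5 genes (Card14). Of these, 6830 had a count in a GRwt/wt Dex library, and 6 (0.0153%) reached in every Dex library at least 0.708 CPM, the lowest Dex value of the 5 (Rasd1). The sixth was Myocd, which encodes the smooth and cardiac muscle coactivator myocardin, with 3, 5 and 0 counts in vehicle and 33, 19 and 67 with Dex (0.145 against 2.25 ± 1.72 CPM). Myocd was not called. Just outside the Dex limit were Rundc3b, Ptchd4 and Ryr2, with lowest Dex values of 0.624, 0.609 and 0.562 CPM. Just outside the vehicle limit were Nfe2l3, D6Ertd527e and Stk33, with highest vehicle values of 0.376, 0.43 and 0.43 CPM. With the limits set on group means in place of single libraries, 10 genes were inside. Among those added, Sphkap had 8, 140 and 20 counts and Calca 11, 94 and 6 counts in the Dex libraries, so that replicate 2 held most of either gene.

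**Figure D2:**
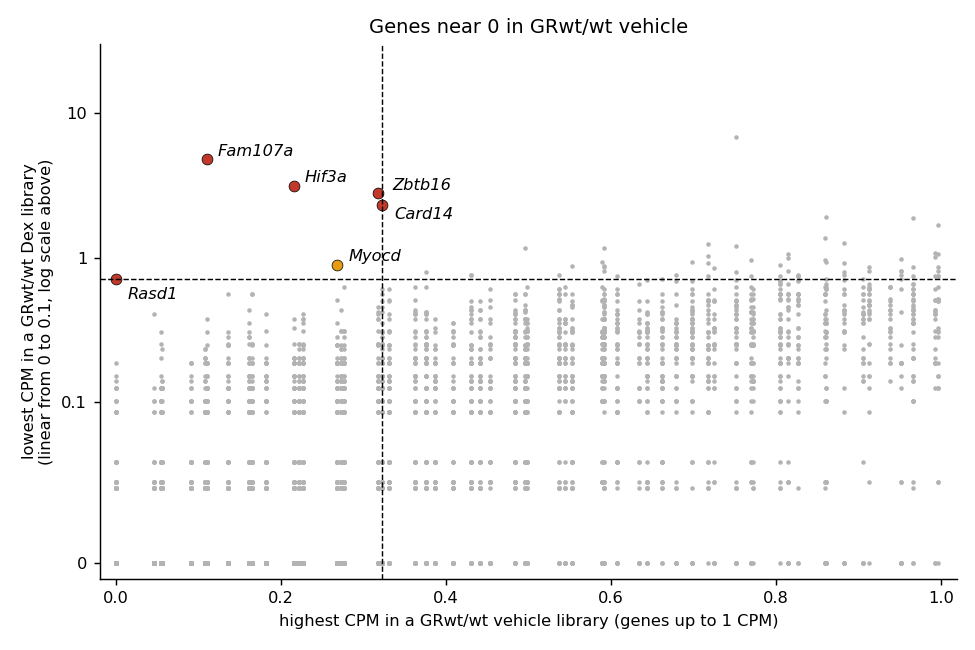
Each point is a gene with at most 1 CPM in every GRwt/wt vehicle library and a count in a Dex library, by its highest vehicle CPM (x axis) and its lowest Dex CPM (y axis, linear to 0.1 and logarithmic above). Dashed lines mark 0.322 and 0.708 CPM, and the 6 genes inside both limits are named, the 5 chosen genes in red and Myocd in orange.

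In GRD/D cells, 3 of the 5 genes were above vehicle in every Dex library, at levels far under those of GRwt/wt. Across all genes tested 10.8% had all GRD/D Dex libraries above both vehicle libraries. Low vehicle counts were part of the choice of these genes, so a rise from vehicle is not independent of it in any genotype. Zbtb16 had 0 and 2 counts in GRD/D vehicle and 6, 4 and 5 counts with Dex, a mean of 0.0517 ± 0.0732 CPM (SD, n = 2) against 0.27 ± 0.0731 CPM (SD, n = 3). Its ratio was 5.29 (1.23 to 47.6), with an unadjusted p of 0.14 and an adjusted p of 1 in edgeR. Hif3a had 0 counts in both vehicle libraries and 3, 6 and 2 with Dex, at least 2.58-fold higher, with an unadjusted p of 0.0265 and an adjusted p of 1. Both genes had counts in all 3 GRD/D Dex libraries.

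Card14 had 2 and 2 counts in GRD/D vehicle and 5, 4 and 6 with Dex, a ratio of 2.64 (0.842 to 10.9, adjusted p = 1). Fam107a was at 0 in both vehicle libraries and had 0, 1 and 0 counts with Dex, too few for a fold. Rasd1 went the other way, with 5 and 3 counts in vehicle and 0, 1 and 3 with Dex, a ratio of 0.352 (0.0777 to 1.32, adjusted p = 1), and its groups overlapped by 1 library. No member was called in GRD/D by edgeR, where 0% of all genes were called, or by DESeq2, which called 0.00681%. At an unadjusted p under 0.05 stood 1 of the 5 (Hif3a) and 154 of all genes (0.978%).

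In GRL/L cells, none of the 5 genes had every Dex library above every vehicle library, and no member and 0% of all genes were called by edgeR (43 genes or 0.273% at an unadjusted p under 0.05, 0 of the 5, and 0 of the 5 and 0% of all genes by DESeq2). Every Dex library was above every vehicle library in 2.43% of all genes and in 0 of the 5. Fam107a had 1, 0 and 2 counts in vehicle and 0, 0 and 5 with Dex, a ratio of 1.6 (0.312 to 10.3). Zbtb16 had 0, 0 and 2 against 0, 0 and 1, too few for a fold. Hif3a had 2, 1 and 1 against 0, 0 and 1, a ratio of 0.24 (0.00488 to 2.43). The Dex counts of Fam107a were all in replicate 3, and without that library its fitted change turned negative. Card14 had 8, 3 and 4 counts in vehicle and 4, 2 and 3 with Dex, a ratio of 0.577 (0.222 to 1.41). Rasd1 had 2, 2 and 1 against 5, 4 and 2, a ratio of 2.11 (0.677 to 7.76). Replicate numbers pair the libraries of GRL/L, and within these pairs Rasd1 was higher with Dex in 3 of 3 and Card14 lower in 3 of 3, with adjusted p = 1 for both in edgeR with the replicate number as a block. Hif3a was higher in 1 pair and lower in 2, Fam107a higher in 1 and lower in 1, and Zbtb16 lower in 1. The share of all genes with every pair in the same direction was not counted, so no weight is put on these pairs. The intervals leave room for a rise of severalfold for Fam107a and Rasd1 and for a fall of severalfold for Hif3a and Card14.

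In GRD+L/D+L cells the 5 genes overlapped between Dex and vehicle as well, and no member and 0% of all genes were called by edgeR (54 genes or 0.343% at an unadjusted p under 0.05, 0 of the 5, and 0 of the 5 and 0.0136% of all genes by DESeq2). Every Dex library was above every vehicle library in 1.88% of all genes and in 0 of the 5. Fam107a had 0, 1 and 0 counts in vehicle and 5, 1 and 0 with Dex, a ratio of 6.56 (0.795 to 302) that rests on replicate 1. Zbtb16 had 0, 0 and 1 against 0 in every Dex library, the only Dex group in which it had no count. Hif3a had 3, 10 and 0 counts in vehicle, the highest of any mutant group, and 2, 2 and 0 with Dex, a ratio of 0.336 (0.0798 to 1.09). Its 10 counts in vehicle replicate 2 were the most of any of the 5 genes outside the GRwt/wt Dex group. Card14 had 4, 0 and 0 against 3, 0 and 1, a ratio of 1.09 (0.203 to 5.87). Rasd1 had 1, 3 and 2 against 2, 5 and 2, a ratio of 1.64 (0.521 to 5.6). Within the pairs of equally numbered libraries none of the 5 genes changed in the same direction in 3 of 3.

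Rasd1 thus had a pattern of its own among vehicle libraries. It had at least 1 count in each mutant vehicle library and 0 in each GRwt/wt vehicle library, with a mean of 0.201 ± 0.0645 CPM in GRD/D (SD, n = 2), 0.0901 ± 0.0333 in GRL/L (SD, n = 3) and 0.102 ± 0.0448 for the double mutant (SD, n = 3). A count of 0 over the GRwt/wt vehicle group has an upper limit of 0.0627 CPM (two-sided 95%, counting error only), above the lowest GRL/L and GRD+L/D+L vehicle libraries (0.0517 and 0.0518 CPM). Vehicle counts were part of the rule and this difference has no test.

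**Figure D3:**
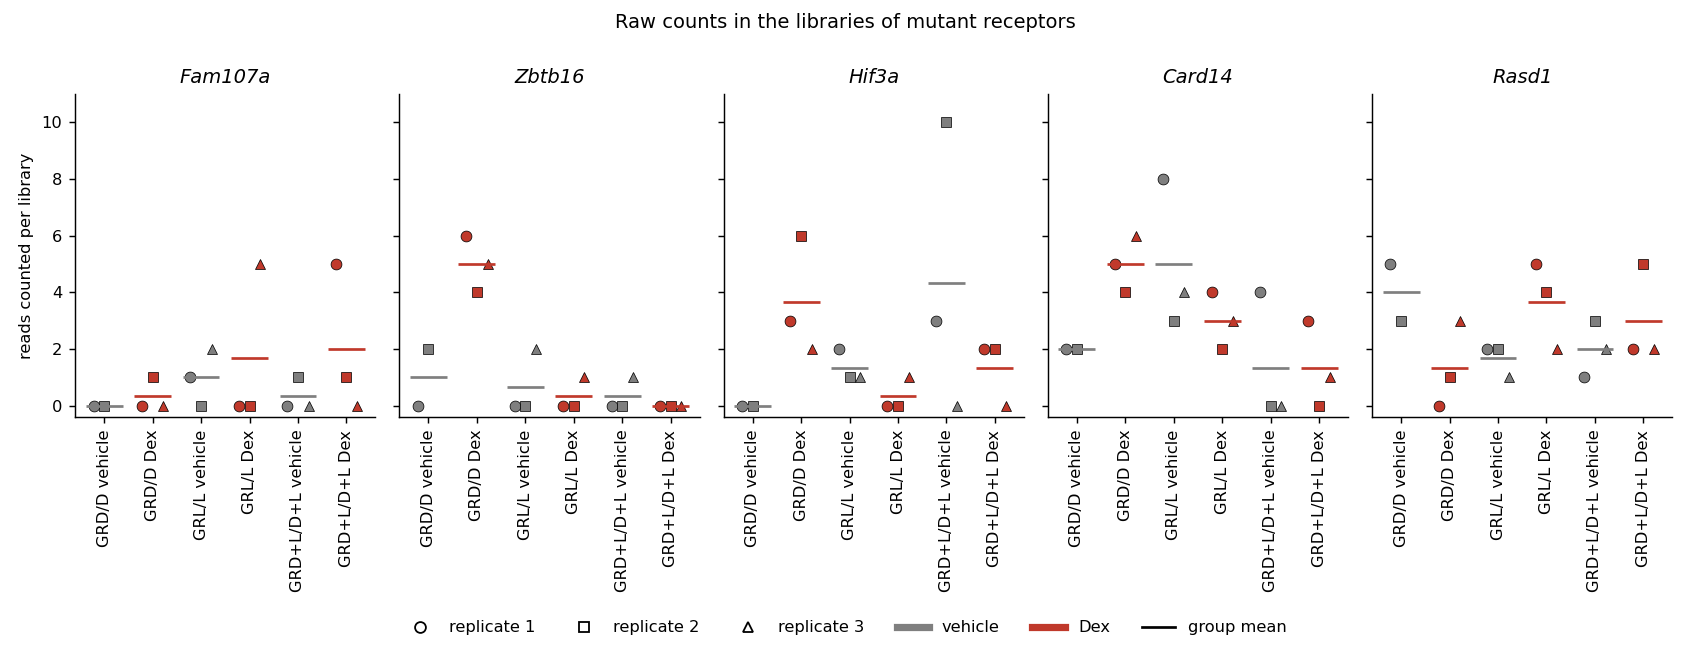
Raw read counts of the 5 genes in each library with a mutant receptor (y axis, linear), by genotype and treatment, with bars at the group means. In GRD/D Dex the counts of Zbtb16 (4 to 6), Hif3a (2 to 6) and Card14 (4 to 6) lie above both GRD/D vehicle libraries. No gene exceeds 10 counts.

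**Figure D4:**
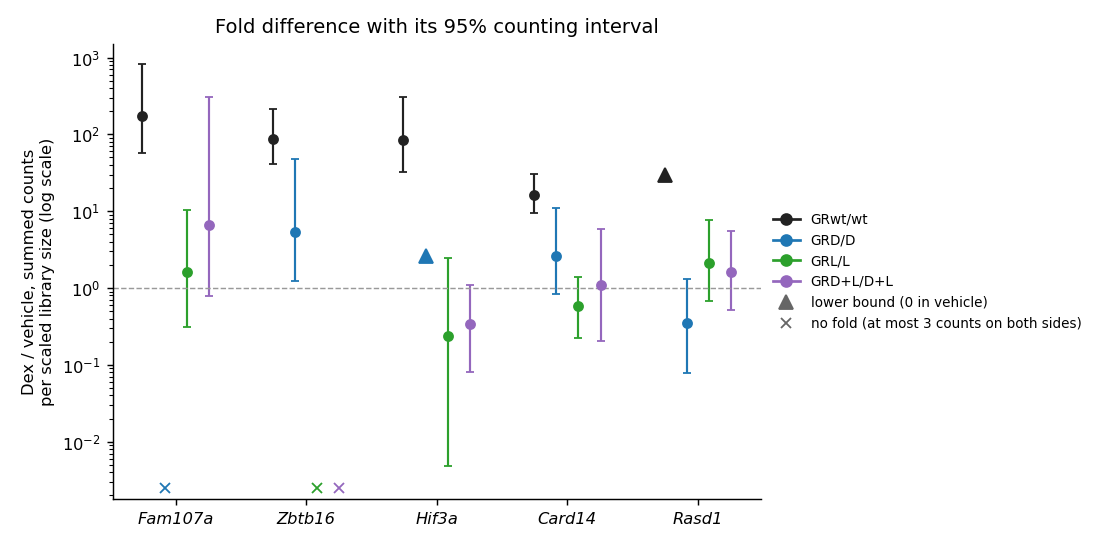
Ratio of Dex to vehicle from summed counts for each gene and genotype on a logarithmic y axis, with 95% intervals that cover counting error only. Triangles are bounds against a floor of 3 counts where the vehicle group was at 0. Crosses at the foot mark genes with at most 3 counts on both sides, and the dashed line is a ratio of 1.

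Set against the GRwt/wt Dex level, as a description, GRD/D Dex held 6.87% of Card14 (3.78 to 11.6), 4.78% of Rasd1 (1.27 to 12.7), 3.45% of Hif3a (1.71 to 6.26), 2.6% of Zbtb16 (1.45 to 4.33) and 0.205% of Fam107a (0.00517 to 1.14). GRL/L Dex held 12.7% of Rasd1 (6.11 to 23.9), 3.98% of Card14 (1.8 to 7.69), 0.988% of Fam107a (0.319 to 2.32), 0.303% of Hif3a (0.00765 to 1.7) and 0.168% of Zbtb16 (0.00423 to 0.937). GRD+L/D+L Dex held 11.4% of Rasd1 (5.03 to 22.6), 1.93% of Card14 (0.523 to 5.02), 1.33% of Hif3a (0.359 to 3.43) and 1.3% of Fam107a (0.473 to 2.84), and was at least 182-fold lower for Zbtb16. These intervals cover counting error only, and the GRwt/wt Dex levels they are set against rest to a large part on single libraries, as given above.

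The Dex groups of the mutants were compared directly. The values that chose the genes enter this test indirectly, since the spread was estimated over all 23 libraries and the genes passed the filter on low counts through GRwt/wt Dex. In fits of only the mutant genotypes compared, none of the 5 passed that filter. Zbtb16 was higher in every GRD/D Dex library (0.27 ± 0.0731 CPM) than in every GRL/L Dex library (0.0177 ± 0.0307 CPM), a ratio of 15.5 (2.39 to 654), with an LFC of 3.53, an unadjusted p of 0.0298 and an adjusted p of 0.17. Hif3a was higher in every GRD/D Dex library as well (0.192 ± 0.0951 against 0.0177 ± 0.0307 CPM), a ratio of 11.4 (1.66 to 490), with an LFC of 3.07, an unadjusted p of 0.0437 and an adjusted p of 0.207. Both intervals exclude 1 for counting error, and neither gene was called once the spread between libraries and the number of genes were taken into account. Card14 was higher in every library too, at 0.27 ± 0.0659 against 0.153 ± 0.0389 CPM, a ratio of 1.73 (0.708 to 4.47, adjusted p = 0.627). In all, 3 of the 5 genes were thus above without overlap, where 24.7% of all genes tested were. Fam107a (ratio 0.207, 0.00438 to 1.85) and Rasd1 (0.377, 0.0874 to 1.27) were lower in GRD/D with overlap (adjusted p = 0.534 and 0.381). No member was called against 2.69% of all genes, and DESeq2 called none of the 5 against 4.2%.

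Against GRD+L/D+L Dex, Zbtb16 in GRD/D Dex was at least 4.73-fold higher, since the double mutant had 0 counts. Its unadjusted p was 0.0112 and its adjusted p 0.0948 in edgeR, so it was not called, where 3.61% of all genes were. It was called by DESeq2 (adjusted p = 0.0414, where 6.42% of all genes were called), in edgeR without GRwt/wt vehicle replicate 1 (0.0473), and in edgeR without GRwt/wt vehicle replicates 1 and 3 (0.0307). Over the fits that included the gene its adjusted p ranged from 0.0307 to 0.205. The GRwt/wt vehicle libraries whose removal gave a call belong to neither group compared and were used to choose the gene. The DESeq2 call used all 23 libraries and rests on 15 counts against 0. No difference is read from any of these calls. Card14 was also higher in every GRD/D Dex library, with 0.27 ± 0.0659 against 0.0735 ± 0.0828 CPM, a ratio of 3.55 (1.13 to 14.7, adjusted p = 0.231). These were 2 of the 5 genes without overlap, against 21.4% of all genes tested. Hif3a overlapped, with a ratio of 2.6 (0.772 to 11.2, adjusted p = 0.548). Rasd1 (0.421, 0.0947 to 1.51) and Fam107a (0.158, 0.00343 to 1.3) had adjusted p-values of 0.433 and 0.411.

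Macrophage markers (6 of 6 detected) summed to 234 to 1429 CPM in GRD/D Dex, 260 to 662 CPM in GRL/L Dex and 5.75 to 69.3 CPM in GRD+L/D+L Dex. The range of GRL/L Dex lay inside that of GRD/D Dex, and that of the double mutant below both. Their part in the values of Zbtb16 was not tested.

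Between GRD+L/D+L Dex and GRL/L Dex no member was called, against 0.121% of all genes (0 of the 5 and 8.5% of all genes at an unadjusted p under 0.05, and 0 of the 5 and 1.03% of all genes by DESeq2). The ratio was 1.31 (0.334 to 5.44) for Fam107a, 4.37 (0.433 to 215) for Hif3a, 0.486 (0.109 to 1.74) for Card14 and 0.895 (0.328 to 2.38) for Rasd1. Zbtb16 had too few counts for a fold. Each of these 4 intervals includes 1 and also a change of more than 2-fold.

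The difference between mutants in their response to Dex was tested as an interaction. None of the 5 genes was called in any of the 3 pairs, and edgeR called 0% of all genes in each. At an unadjusted p under 0.05 stood 0.47% of all genes for GRD/D against GRL/L, 0.654% for GRD/D against GRD+L/D+L and 0.387% for GRD+L/D+L against GRL/L. This interaction was not fitted with DESeq2. The lowest unadjusted p-values of the 5 were those of Hif3a, 0.0146 for GRD/D against GRD+L/D+L and 0.0219 for GRD/D against GRL/L, and all adjusted p-values were 1.

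Over the 8 groups each gene had the same top, GRwt/wt Dex, and different followers. After it came GRD/D Dex for Zbtb16 (0.27 CPM), GRD+L/D+L vehicle for Hif3a (0.204 CPM) ahead of GRD/D Dex (0.192 CPM), GRL/L vehicle for Card14 (0.271 CPM) ahead of GRD/D Dex (0.27 CPM), GRD/D vehicle for Rasd1 (0.201 CPM) ahead of GRL/L Dex (0.187 CPM), and GRD+L/D+L Dex for Fam107a (0.11 CPM) ahead of GRL/L Dex (0.0886 CPM). Apart from the step from GRwt/wt Dex to the second group, libraries of neighbouring groups in these orders overlapped or shared a 0, except for Card14 between GRL/L Dex (0.111 to 0.188 CPM) and GRD/D vehicle (0.0985 to 0.103 CPM).

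The families and partners of the 5 genes were read from a list of 45 genes, of which 42 passed the filter. None was called with Dex in any genotype by edgeR, and at an unadjusted p under 0.05 there was 1 in GRL/L and 0 in both other mutants. In GRwt/wt 17 of the 42 had a positive LFC and the median was -0.11, beside 49.2% positive and a median of -0.0093 over all genes, and 8 were under an unadjusted p of 0.05, as were 15.6% of all genes, 3 of the 8 with a positive LFC. DESeq2 called 2 of the list in GRwt/wt (1.78% of all genes) and 0 in the mutants, and edgeR called 3 in GRwt/wt without vehicle replicate 2 and 1 without Dex replicate 1. The share of all genes called is not given for these edgeR fits, so their counts are not read as a result about the list. The nearest paralogs had 0.424 to 211 CPM in GRwt/wt vehicle.

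Fam107b, the paralog of Fam107a, had 26.8 ± 9 CPM in the GRwt/wt vehicle libraries and 42.3 ± 7.24 CPM in those with Dex (SD, n = 3), an LFC of 0.66 (adjusted p = 0.603). Bcl6, a BTB zinc-finger repressor like Zbtb16, had 32.6 ± 2.86 and 42.8 ± 3.88 CPM, an LFC of 0.39 (adjusted p = 0.165). Neither of the other alpha subunits of the hypoxia-inducible factors was called. Hif1a had 211 ± 176 CPM in vehicle and 321 ± 131 CPM with Dex (LFC 0.61, adjusted p = 0.663), and Epas1 had 11.6 ± 14.5 and 4.78 ± 0.973 CPM (LFC -1.28, adjusted p = 0.4). Each value rests on 1 vehicle library, since without replicate 1 the LFC of Hif1a was 0.054 and without replicate 3 that of Epas1 was 0.62. Of the 14 genes of the hypoxia group, which hold the prolyl hydroxylases, Vhl and known hypoxia targets, 4 had a positive LFC, with a median of -0.13.

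Card10, a paralog of Card14, had 3.54 ± 3.28 and 3.03 ± 2.68 CPM (LFC -0.22, adjusted p = 0.894, with an LFC of 0.87 without vehicle replicate 1 and of -1.2 without Dex replicate 1), and the 6 tested genes of that group, which include Bcl10 and Malt1, had a median LFC of -0.15. The lowest in that group was Card9, an adaptor of myeloid cells, with 1.83 ± 3.08 CPM in vehicle and 0.0481 ± 0.0469 CPM with Dex (LFC -5, adjusted p = 0.165). Its highest vehicle library was replicate 3 with 5.39 CPM, which also had the highest macrophage markers, and without it the LFC was -0.033. Without vehicle replicate 2 Card9 was called (LFC -5.56, adjusted p = 0.0366). Rasd2, the paralog of Rasd1, had 0.424 ± 0.24 and 0.282 ± 0.202 CPM (LFC -0.57, adjusted p = 0.772, with an LFC of -0.032 without Dex replicate 1 and of -1.01 without Dex replicate 2). Among the 12 tested relatives and partners of Rasd1 the highest LFC was that of Gem, another small GTPase, from 27.2 ± 14.7 to 63.4 ± 19.8 CPM (LFC 1.22, adjusted p = 0.0838), which was called only without vehicle replicate 2 (adjusted p = 0.000641) or Dex replicate 1 (0.0261) among the fits that left out 1 GRwt/wt library.

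A list of 18 other genes that glucocorticoids are known to induce, Bcl6 among them, passed the filter as a whole. In GRwt/wt edgeR called 3 of them (0.159% of all genes), Fkbp5, Per1 of the circadian clock and Tsc22d3, which encodes the GR effector GILZ, and all 18 had a positive LFC (49.2% of all genes) with a median of 1.32. The count was 5, 8 and 5 without vehicle replicate 1, 2 and 3, 10 by DESeq2 (1.78% of all genes) and 0 in a fit of GRwt/wt alone. For the fits without a vehicle replicate the share of all genes called is not given. In GRD/D 0 were called, 12 were positive (50.8% of all genes) and the median was 0.17, with Fkbp5 going from 31.9 ± 1.01 to 102 ± 13.7 CPM (LFC 1.68, adjusted p = 0.137) and Per1 from 16.5 ± 0.396 to 41.9 ± 3.58 CPM (LFC 1.35, adjusted p = 0.0999). Both were under an unadjusted p of 0.05, and DESeq2 called 2 of the list in GRD/D, where it called 2 genes in all. In GRL/L 14 were positive (48.1% of all genes) with a median of 0.029, and in the double mutant 8 were positive (50.6% of all genes) with a median of -0.033, with 0 called and 0 under an unadjusted p of 0.05. The median over all genes was between -0.0093 and 0.003 in each genotype.

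**Figure D5:**
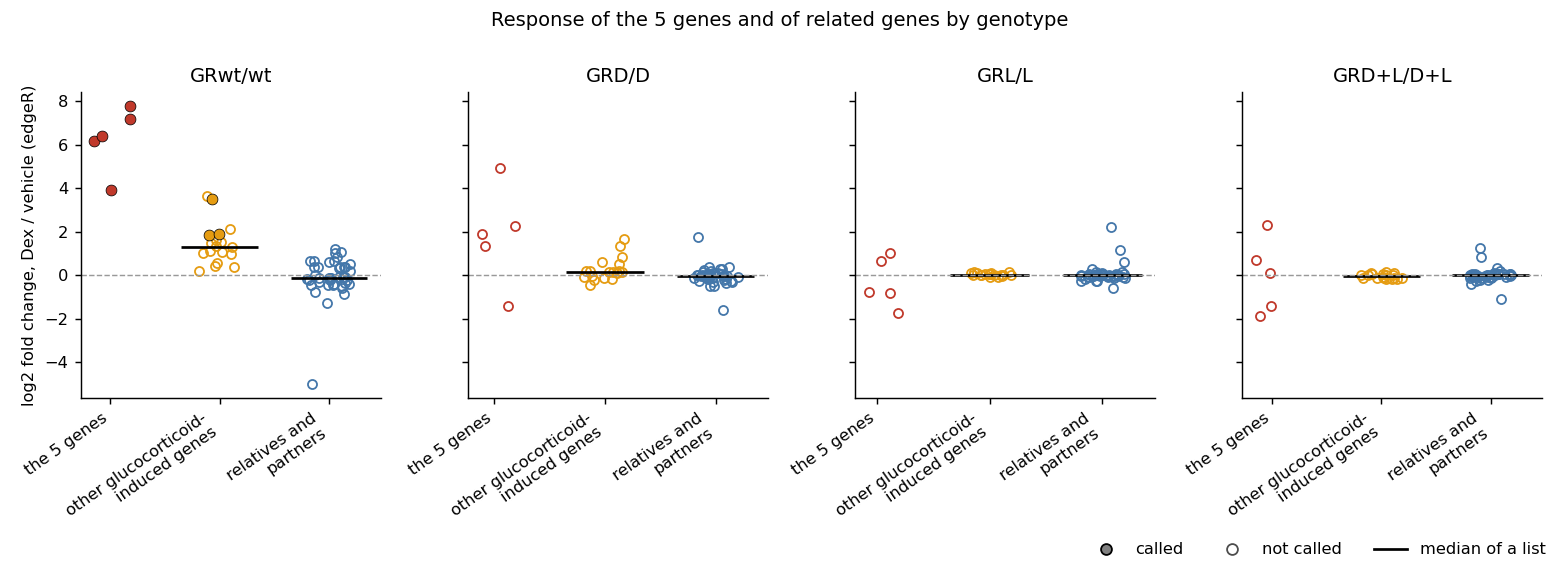
Log2 fold change of Dex against vehicle (y axis) for the 5 genes, the 18 other glucocorticoid-induced genes and the 42 tested relatives and partners, 1 panel per genotype. Filled points were called and open points were not, bars are list medians (none is drawn for the 5 genes, whose fitted values depend on the prior count where a group is at 0). Values of the 5 genes spread widely around 0 in the mutants, where each rests on a few counts.

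Within 100 kb of the 5 lay 35 other genes, of which 15 passed the filter. With Dex in GRwt/wt edgeR called 0 of these 15 (0.159% of all genes), 2 were under an unadjusted p of 0.05 (15.6% of all genes) and DESeq2 called 0 (1.78% of all genes). Their LFC ranged from -0.66 to 0.54. The nearest that did not overlap a member was Med9, 976 bases from Rasd1, a subunit of the Mediator complex, with 24.9 CPM in vehicle and 19.4 CPM with Dex (LFC -0.36, adjusted p = 0.292). Ppp5c, a phosphatase of GR complexes 3583 bases from Hif3a, had 67.9 and 68.8 CPM (LFC 0.02, adjusted p = 0.959). Kctd6 near Fam107a and Nnmt near Zbtb16 had an LFC of 0.13 and -0.66 (adjusted p = 0.803 and 0.648).

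The genes whose pattern was most like that of the 5 were ranked by Pearson's r over the 23 libraries between log2(CPM + 0.5) of a gene and the mean of the 5, a likeness that rests on the 3 GRwt/wt Dex libraries. The members aside, they were Gm27252 (r = 0.97), Slc9a3, a sodium-proton exchanger (0.96), Map7d2, a microtubule-associated protein (0.89), Tsc22d3 (0.89) and Ism1, a secreted protein (0.88). Gm27252 and Slc9a3 also began near 0, with 0.0151 and 0.0179 CPM in GRwt/wt vehicle against 0.681 and 0.726 CPM with Dex. Map7d2 had 0.776 and 15 CPM in GRwt/wt, 0.459 and 1.81 CPM in GRD/D, 0.352 and 0.289 CPM in GRL/L, and 0.565 and 0.371 CPM in GRD+L/D+L. With a pseudocount of 0.1 in place of 0.5, 2 of these 5 genes stayed among the first 5.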

How the data were processed

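The authors made TruSeq libraries, sequenced them on a NovaSeq, mapped reads to mm10/GRCm38 with HISAT2 2.1.0, kept uniquely mapped reads and deposited raw counts per Ensembl gene from featureCounts 2.0.0. FastQC and DESeq2 are also named in the submitters' processing notes. The annotation release and strand setting are not given in the sources used here. Every table column matched 1 library by name. Symbols were found for 55141 of 55487 identifiers, and coordinates are from the GENCODE M21 annotation of GRCm38.

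Counts of all 23 libraries were fitted with 1 mean per group in edgeR 4.0.16 (R 4.3.3, quasi-likelihood test, TMM scaling, filterByExpr, prior count 0.125), which kept 15748 genes, all 5 members among them, and p-values were Benjamini-Hochberg adjusted over these. A member that passed the filter only through GRwt/wt Dex had to differ there. Tests are two-sided. Ratios of summed counts have exact conditional 95% intervals for counting error only, and a group at 0 was set to 3 counts over the group. Fits were tested on simulated data with 200 changed genes. The alternatives were RLE and upper-quartile scaling, no filter or 10 counts in every library, DESeq2 1.42.0, adjusted p alone, only the genotypes compared, a replicate block, a prior count of 2, CPM from total counts, each library left out, and, added after seeing the data, GRwt/wt vehicle replicates 1 and 3 left out together.

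Members, gene lists and the naming rule were all chosen with earlier results of these data known. Named are the 5 members, Nr3c1, the nearest paralogs, list genes called in a Dex contrast, the 5 genes of most similar pattern and genes inside the limits on vehicle and Dex levels. Further genes named as extremes, neighbours or close to a limit were picked after their values were seen. Deviations from group means of equally numbered Dex and vehicle libraries correlated at 0.322 to 0.644 in GRL/L and 0.652 to 0.887 in GRD+L/D+L, so the numbers pair libraries there. In GRwt/wt only Dex replicate 1 was closest to the vehicle library of its own number (0.548). In GRD/D, with 2 vehicle libraries, this could not be decided.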

Additional observations from a re-analysis of the deposited data

Results flagged for a closer look

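For 11 combinations of gene and genotypes, every Dex library of one genotype was above the mean of its vehicle libraries and every Dex library of the other was below it. The share of all genes that meet this was not counted, so the number is not read as a result about the 5 genes. Zbtb16 met it in GRD+L/D+L through 1 vehicle count. The value given is the difference between the mean changes in CPM. Against GRwt/wt these differences were not tested, because the rise in GRwt/wt chose the genes. They were 10 CPM for Zbtb16 against GRD+L/D+L, 5.4 CPM for Hif3a against GRL/L and 5.47 CPM against GRD+L/D+L, 3.62 CPM for Card14 against GRL/L, and 1.55 CPM for Rasd1 against GRD/D.

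Between mutants the same opposition had small sizes. GRD/D minus GRD+L/D+L was 0.238 CPM for Zbtb16 (0.219 against -0.0196) and 0.322 CPM for Hif3a (0.192 against -0.13). GRD/D minus GRL/L was 0.246 CPM for Hif3a (0.192 against -0.0545) and 0.287 CPM for Card14 (0.169 against -0.118). For Rasd1 it was the reverse, with -0.227 CPM for GRD/D minus GRL/L (-0.13 against 0.0972) and -0.198 CPM for GRD/D minus GRD+L/D+L (-0.13 against 0.068). As an interaction in edgeR none of these 6 passed the threshold (adjusted p = 1 for each).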

How the results depend on the processing

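Of the 5 members, all of which were called in GRwt/wt, 0 were called in a fit of GRwt/wt alone and 0 without GRwt/wt vehicle replicates 1 and 3; leaving out 1 library gave 2 to 5, the 2 without GRwt/wt Dex replicate 2. In GRD/D Dex against GRD+L/D+L Dex, 1 member (Zbtb16) was called by DESeq2 and 1 without vehicle replicates 1 and 3, and 0 to 1 with 1 library left out. With 10 counts in every library, and in mutants with only the genotypes compared, no member was left to test. Relatives and partners called in GRwt/wt were 0 as reported, 1 with the replicate block, 2 by DESeq2 and 0 to 3 with 1 library left out (3 without vehicle replicate 2, 1 without Dex replicate 1). Other glucocorticoid-induced genes called in GRwt/wt were 3 as reported, 0 in a fit of GRwt/wt alone, 12 with the block, 10 by DESeq2 and 3 to 8 with 1 library left out (8 without vehicle replicate 2, 5 without replicate 1 and 5 without replicate 3). In GRD/D they were 0 as reported, 1 with 10 counts in every library, 2 in a fit of GRD/D alone, 1 with the block, 2 without vehicle replicates 1 and 3, 2 by DESeq2 and 0 to 2 with 1 library left out. The block changed no other of these counts. By group means the limits on vehicle and Dex levels held 10 genes in place of 6. The cause of these differences was not tested. For fits with libraries left out, or with 10 counts in every library, the share of all genes called is not given. Counts from these fits are therefore not set against a background.

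Values that changed sign without 1 library were the log2 fold changes of Fam107a in GRL/L (-3.19 to 1.46), Card14 in GRD+L/D+L (-1.1 to 3.63), Fam107a in GRD/D Dex against GRL/L Dex (-3.83 to 1.88) and in GRD+L/D+L Dex against GRL/L Dex (-1.4 to 4.17), and Rasd1 in the latter (-0.72 to 0.1). The median of relatives and partners ranged from -0.26 to 0.035 in GRwt/wt (0.14 without vehicle replicates 1 and 3), -0.02 to 0.016 in GRL/L and -0.032 to 0.025 in GRD+L/D+L (0.0041 with RLE scaling, 0.00057 with 10 counts in every library), and that of the other glucocorticoid-induced genes from -0.016 to 0.1 in GRL/L. Over all genes the block called 199 in GRwt/wt (25 without it, 279 by DESeq2, 0 in a fit of GRwt/wt alone) and 7 in GRD/D (0 without it). In these genotypes the replicate numbers were not shown to pair all libraries. Equally numbered libraries correlated at -0.0265 to 0.548 in GRwt/wt. Dex replicate 1 was closest to vehicle replicate 1 (0.548), Dex replicate 2 to vehicle replicate 3 (0.375) and Dex replicate 3 to vehicle replicate 2 (0.544). In GRD/D the values were -0.199 to 0.283. Its 2 vehicle libraries deviate from their mean by equal and opposite amounts, so this cannot decide whether the numbers pair them. In mutants the members have at most 10 counts per library, so counting error limits every fold there.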
